A study of Homo sapiens with 6 samples.

Results

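The expression of 10 marker genes of liver cancer and of liver progenitor cells was compared between Huh-7 cells with and without overexpression of RAC3. The genes were taken by symbol from the 20332 genes of the deposited count table, and all 10 had a row there: AFP, SPP1, GPC3, EPCAM, CD24, PROM1, CD44, DLK1, SOX9 and KRT19. Huh-7 is an established human line derived from a hepatocellular carcinoma. The 3 samples of the RAC3 group came from cells that stably overexpressed RAC3, a small GTPase, after lentiviral transfer, and the 3 samples of the NC group from the corresponding negative controls, which GEO labels as WT. Whether the stable cells were a clone or a pool, and whether the RNA samples of a group came from separate cultures, is not given in the sources used here, so p-values measure the spread between these RNA samples. The genotype labels of RAC3 replicates 2 and 3 read RAC4 and RAC5 overexpression, while their titles name RAC3. Their normalized RAC3 level was 239.6 and 225 CPM (counts scaled to depth), that of replicate 1 was 233 and those of the NC samples 31.4 to 35.6, and they were kept in the RAC3 group.

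Several of these markers are genes of the fetal liver that adult hepatocytes keep low and that many liver cancers express again. AFP and GPC3 are the best known, and both are used in diagnosis. EPCAM, KRT19 and SOX9 belong to bile duct cells and to the bipotent progenitor cells of the liver, and tumours that express KRT19 are regarded as progenitor-like. CD24, PROM1 (also called CD133) and CD44 are surface proteins used to enrich tumour-initiating cells, DLK1 marks fetal hepatoblasts, and SPP1 encodes osteopontin, a secreted phosphoprotein that binds integrins and CD44.

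Poly(A)-selected RNA was sequenced, and the deposited table gave raw counts per gene and sample and FPKM values, which are scaled to gene length and depth. The samples had between 13855762 and 18199888 counts. Values below are normalized CPM (scaled by edgeR's TMM method) unless FPKM is named. Of all genes, 12941 had enough counts to be tested by edgeR's quasi-likelihood test, and adjusted p-values are from this test with Benjamini-Hochberg adjustment over all of them. A gene is said to have risen or fallen where this adjusted p was below 0.05. In bulk RNA, a lower share of cells that express a gene and less RNA per cell cannot be told apart.

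The difference between the groups moved with the GC content of the transcripts. When the tested genes were put into 5 bins of near-equal size by the GC content of their longest transcript, the median log2 fold change was 0.15 in the lowest bin (30.2% to 40.8% GC) and -0.18 in the highest (58.3% to 74.5% GC). The lowest bin held 782 genes that rose and 48 that fell, the highest 42 and 928. The markers are therefore also given after a correction that took each library's dependence on GC content out (called GC trend removed). Of the marker lists for other cells, the summed level of 6 fibroblast genes was 233 to 249.0 CPM in the NC samples and 272 to 285 in the RAC3 samples. Of its members, LUM (0.22, adjusted p = 0.0029) and COL1A2 (0.51, adjusted p = 9.9e-06) rose, COL1A1 fell (-0.22, adjusted p = 0.024), PDGFRB had -0.71 (adjusted p = 0.057) and COL3A1 -0.12 (adjusted p = 0.83) as log2 fold change, and DCN had under 10 counts in every sample. The sum of 5 leukocyte genes was 43.3 to 50.7 and 40.9 to 42.1, with PTPRC and CD3E under 10 counts in every sample. Of the others, CD14 fell (-0.37, adjusted p = 0.0020), CD68 rose (0.47, adjusted p = 0.042) and LYZ had 0.48 (adjusted p = 0.25). The sum of 4 endothelial genes was 2.53 to 3.15 and 2.70 to 3.76. The part of these sums in the results was not tested. Among the hepatocyte markers, ALB, TTR, SERPINA1, APOA1, TF and FGB were all counted in every sample.

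Compared per length, the markers spanned a wide range of levels and kept 1 order in both groups. CD24 was highest, at 577.5 ± 6.54 FPKM in NC and 548 ± 19.4 in RAC3 (SD, n = 3), followed by GPC3 at 486 ± 4.96 and 449 ± 16.9 FPKM and KRT19 at 461 ± 12.2 and 386 ± 22.1 FPKM. AFP lay at 188 ± 9.05 and 219.5 ± 11.0 FPKM, EPCAM at 109 ± 4.68 and 111 ± 4.08 FPKM and SOX9 at 34.7 ± 5.18 and 30.6 ± 1.06 FPKM. PROM1 had 11.2 ± 0.458 and 11.1 ± 0.487 FPKM, and SPP1 5.66 ± 0.316 and 8.05 ± 0.274 FPKM. The gene length implied by the authors' FPKM differed between samples for SPP1 (1297 to 1568 bases) and PROM1 (3511 to 3846 bases). It differed less for GPC3 (2028 to 2128 bases). The FPKM differences of these genes therefore mix level and length. The mean FPKM of CD24 in NC was 102 times that of SPP1. CD44 was near the limit of detection and DLK1 was listed at 0. Neighbours in this order did not overlap over the samples of either group, except CD44 and DLK1 in the RAC3 group.

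**Figure D1:**
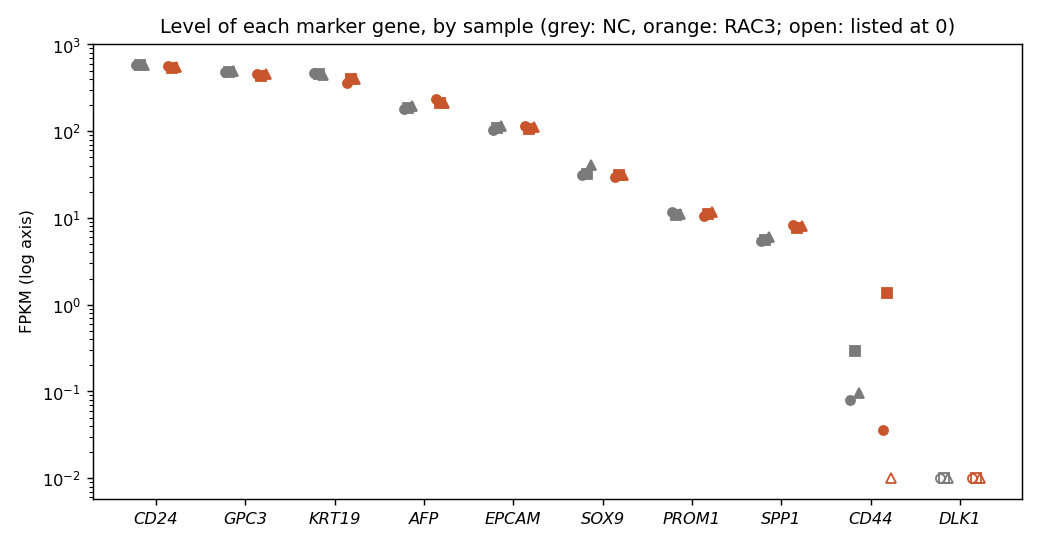
Level of the 10 marker genes in FPKM (log axis) in each of the 6 samples, with NC in grey, RAC3 in orange, a symbol for each replicate number and open symbols at the foot of the axis for values listed at 0. The order from CD24 to SPP1 was the same in both groups, and only CD44 differed widely between samples of 1 group.

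Of the 10 markers, 8 passed the filter on low counts and 2 (CD44 and DLK1) did not. By the study's thresholds, a fold change above 1.5 in either direction with an unadjusted p below 0.05, edgeR's quasi-likelihood test called 0 of the 8, while 4.68% of all tested genes were called. At an unadjusted p below 0.05 alone there were 6 of the 8 (39.2% of all tested genes), and by the study's thresholds limma-voom, DESeq2 and the exact test of edgeR also called 0. By an adjusted p below 0.05, 6 of the 8 changed, against 28.5% of all tested genes. AFP and SPP1 rose (13.3% of all genes did), and GPC3, CD24, SOX9 and KRT19 fell (15.3% of all genes did). The changes were small: the median log2 fold change of the 8 was -0.13 (0.00 over all genes) and the median size regardless of direction was 0.17 (0.16 over all genes). The NC and RAC3 samples did not overlap for 7 of the 8 markers, all but EPCAM, and for 42.5% of all genes.

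**Figure D2:**
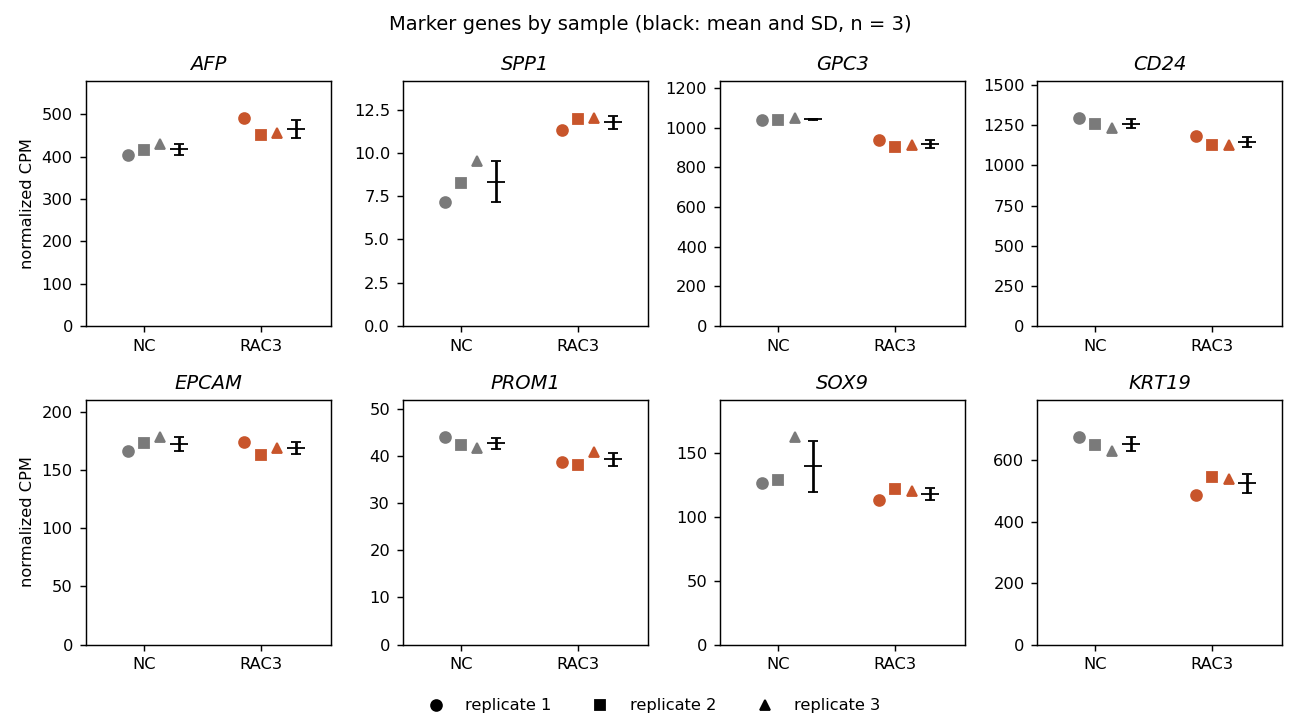
Normalized CPM of the 8 tested markers in each sample, on axes that start at 0, with black marks for the mean and SD of each group (n = 3). SPP1 and AFP lie higher in the RAC3 samples, KRT19, GPC3, CD24, PROM1 and SOX9 lower, and the EPCAM groups overlap.

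AFP (ENSG00000081051) encodes alpha-fetoprotein, the main plasma protein of the fetal liver, and lies on chromosome 4 from 73431138 to 73456174 on the plus strand, next to its relatives ALB and AFM (GRCh38, GENCODE release 29). The RefSeq start of AFP lies inside this span, downstream of where the span begins. Of the 250 bases before the RefSeq start, those ahead of the first GENCODE exon that reaches into them are shown (GRCh38.p14, chr4:73435971-73436162, plus strand), because AFP was among the markers that rose.

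AFP promoter: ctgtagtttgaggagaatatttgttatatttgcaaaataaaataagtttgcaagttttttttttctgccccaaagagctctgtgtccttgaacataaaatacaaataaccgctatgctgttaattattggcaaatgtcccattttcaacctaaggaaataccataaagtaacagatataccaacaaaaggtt

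The letters TATAAA of a TATA box begin 29 bases before the RefSeq start, past the printed stretch. Searched on both strands, they were in 10.7% of the 35116 RefSeq promoter windows of this length, and the AFP window had a GC content of 31.6% against a mean of 57.2%. Such a match describes the letters and shows no binding.

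AFP had 405, 415 and 431 CPM in the NC samples and 490.2, 451 and 456 CPM in the RAC3 samples. Every RAC3 sample was above every NC sample. The mean rose from 417 ± 13.0 to 466 ± 21.4 CPM (SD, n = 3), a log2 fold change of 0.16 (95% confidence interval 0.07 to 0.25, adjusted p = 0.0089). The AFP transcript has a GC content of 38.8%, in the lowest bin, and with the GC trend removed its log2 fold change was 0.012 (-0.055 to 0.079, adjusted p = 0.84), so the call was lost. It was also lost without NC replicate 2 (0.15, adjusted p = 0.05).

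SPP1 (ENSG00000118785) lies on chromosome 4 from 87975650 to 87983426 on the plus strand. Its promoter is shown beside that of AFP, since these were the markers that rose. The printed stretch ends before the GENCODE start of the gene (GRCh38.p14, chr4:87975464-87975649, plus strand). TATAAA was not found in the 250 bases before its RefSeq start.

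SPP1 promoter: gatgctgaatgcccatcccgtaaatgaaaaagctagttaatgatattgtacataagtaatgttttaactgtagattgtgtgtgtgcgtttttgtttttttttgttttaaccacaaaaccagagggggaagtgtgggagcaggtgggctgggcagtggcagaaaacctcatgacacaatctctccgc

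SPP1 was counted 100, 124 and 171 times in the NC samples and 201, 197 and 169 times in the RAC3 samples. Scaled to depth, these were 7.16, 8.26 and 9.53 CPM against 11.3, 12.0 and 12.0 CPM. The RAC3 samples lay close together and above all NC samples, which were more spread. SPP1 rose from 8.32 ± 1.19 to 11.8 ± 0.383 CPM (SD, n = 3), which was 1.40-fold (95% confidence interval 1.16 to 1.70, log2 fold change 0.49, adjusted p = 0.0090). This was the largest change among the tested markers. It kept an adjusted p below 0.05 under all 17 alternatives that gave one, with log2 fold changes from 0.38, with the GC trend removed, to 0.60, without NC replicate 3. Without that replicate SPP1 also passed the study's thresholds.

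GPC3 (ENSG00000147257, chromosome X from 133535745 to 133985895, minus strand) encodes glypican 3, a heparan sulfate proteoglycan held to the cell membrane by a lipid anchor. It had 1040.1, 1039 and 1047 CPM in the NC samples and 939.8, 901 and 915 CPM in the RAC3 samples. The NC samples were nearly identical, and every RAC3 sample lay below them. GPC3 fell from 1042 ± 4.05 to 918.5 ± 19.7 CPM (SD, n = 3), a log2 fold change of -0.18 (-0.26 to -0.11, adjusted p = 0.00081). It remained called with the GC trend removed (-0.14, adjusted p = 0.0027). With the authors' FPKM values in place of the counts, tested by limma, the log2 fold change was -0.11 and the call was lost (adjusted p = 0.08).

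CD24 (ENSG00000272398, chromosome 6 from 106969831 to 106975627, minus strand) encodes a small, heavily glycosylated surface protein. Its values were 1293, 1257 and 1232 CPM in the NC samples and 1185, 1125 and 1130.2 CPM in the RAC3 samples, without overlap. CD24 fell by 9.02%, from 1261 ± 30.5 to 1147 ± 33.3 CPM (SD, n = 3), a log2 fold change of -0.14 (-0.21 to -0.06, adjusted p = 0.0093). With the GC trend removed it was -0.18 (adjusted p = 3e-04). The call was lost by scaling to library size alone (-0.08, adjusted p = 0.10), without RAC3 replicate 3 (-0.13, adjusted p = 0.057) and with FPKM values (-0.08, adjusted p = 0.21). CD24 has 3 processed pseudogenes in the annotation, none with a row in the table, so how reads shared with these copies were counted is not known.

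EPCAM (ENSG00000119888, chromosome 2 from 47345158 to 47387601, plus strand) encodes an epithelial adhesion molecule. It had 166, 173 and 178 CPM in the NC samples and 174, 163 and 169 CPM in the RAC3 samples. The groups overlapped, and the log2 fold change was -0.033 (-0.13 to 0.063, adjusted p = 0.64). Scaling to library size alone (0.023, adjusted p = 0.76) or the use of FPKM values (0.023, adjusted p = 0.79) turned its sign.

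PROM1 (ENSG00000007062, chromosome 4 from 15963076 to 16084378, minus strand) encodes prominin 1, a protein of membrane protrusions. Its values were 44.1, 42.4 and 41.8 CPM in the NC samples and 38.8, 38.3 and 40.9 CPM in the RAC3 samples. All RAC3 samples were lower than all NC samples, but the difference missed the threshold, with means of 42.8 ± 1.22 and 39.3 ± 1.41 CPM (SD, n = 3) and a log2 fold change of -0.12 (-0.26 to 0.02, adjusted p = 0.18). With the GC trend removed, the log2 fold change was -0.21 (-0.34 to -0.07) and PROM1 passed it (adjusted p = 0.025). FGFBP2 overlaps PROM1 on the same strand, so reads in the shared stretch are uncertain.

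SOX9 (ENSG00000125398, chromosome 17 from 72121020 to 72126420, plus strand) encodes a transcription factor of bile duct and progenitor cells. It had 126, 129 and 162 CPM in the NC samples and 113, 122 and 119.7 CPM in the RAC3 samples. NC replicate 3 stood above the other 5 samples, and the RAC3 samples lay just below the other NC samples. The mean went from 139 ± 20.0 to 118 ± 4.69 CPM (SD, n = 3), a log2 fold change of -0.24 (-0.39 to -0.09, adjusted p = 0.018). Without NC replicate 3 this was -0.12 (adjusted p = 0.14), and the call was also lost without RAC3 replicate 1 (-0.21, adjusted p = 0.083), by DESeq2 (-0.24, adjusted p = 0.15), by scaling to library size alone (-0.19, adjusted p = 0.059) and with FPKM values (-0.17, adjusted p = 0.24). With the GC trend removed it held (-0.21, adjusted p = 0.038). SOX9-AS1 lies on the opposite strand, and whether strand was used in counting is not stated, so its reads cannot be told apart from those of SOX9.

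KRT19 (ENSG00000171345, chromosome 17 from 41523617 to 41528308, minus strand) encodes keratin 19, an intermediate filament protein of bile duct epithelium. It had 676, 651 and 631 CPM in the NC samples and 487, 546 and 539 CPM in the RAC3 samples. The groups were far apart for this gene: the highest RAC3 sample lay below the lowest NC sample by more than the spread within either group. KRT19 fell by 19.7%, from 652 ± 22.5 to 524 ± 32.0 CPM (SD, n = 3), a log2 fold change of -0.32 (-0.41 to -0.22, adjusted p = 4.1e-05), the smallest p among the markers. Its adjusted p stayed below 0.05 under all 17 alternatives. Its transcript has a GC content of 61.8%, in the highest bin, and with the GC trend removed the log2 fold change was -0.14 (-0.20 to -0.07, adjusted p = 0.0041). The annotation has 5 processed pseudogenes of KRT19, none with a row in the table.

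**Figure D3:**
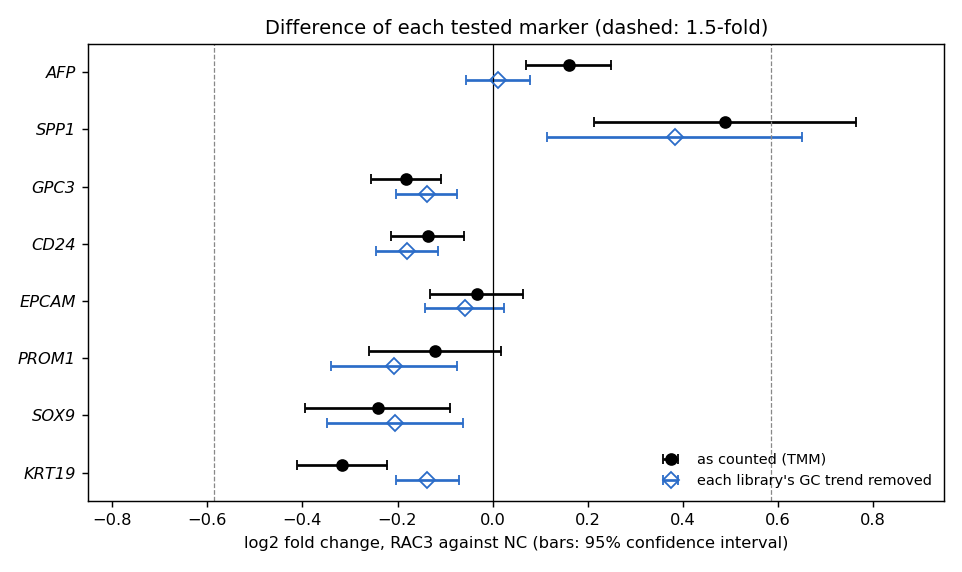
Log2 fold change of RAC3 against NC for the 8 tested markers with 95% confidence intervals, as counted (black circles) and with the GC trend removed (blue diamonds). All black circles lie inside the dashed lines at 1.5-fold. AFP moves from 0.16 to 0.012 and KRT19 from -0.32 to -0.14, while SPP1 stays above 0.

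Over the 6 samples, the genes whose log2 CPM most resembled that of KRT19, among 11213 genes with a mean of at least 50 counts, were DHRS1 (Pearson r = 0.9988), CLN3 (r = 0.9985) and TMEM250 (r = 0.9982). Those most like GPC3 were APOC2 (r = 0.9984), NLGN2 (r = 0.9978) and GYG2 (r = 0.9977). These correlations describe 6 samples in 2 groups that share depth and GC trend, and the best of so many genes are high by selection.

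CD44 and DLK1 could hardly be measured. DLK1 (ENSG00000185559, chromosome 14 from 100725705 to 100738224, plus strand), a membrane protein, had 0 counts in all 6 samples, which allows up to 0.167 to 0.215 CPM per sample (3 counts, counting error only). CD44 (ENSG00000026508, chromosome 11 from 35138870 to 35232402, plus strand), the receptor of hyaluronan, was counted 1, 3 and 3 times in the NC samples and 2, 52 and 0 times in the RAC3 samples. All samples but RAC3 replicate 2 were at or below 3 counts. With the filter reduced to genes at 0 in every sample, CD44 was tested, and its log2 fold change was 2.82 (adjusted p = 0.0096) and it passed the study's thresholds, on the counts of this 1 library. CD44-AS1 lies on the opposite strand and could not be told apart from it.

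A few other genes had most of their counts in the same library. KRT7, a keratin of bile duct cells, had 3, 5 and 3 counts in the NC samples and 2, 33 and 1 in the RAC3 samples. ALDH1A3, an aldehyde dehydrogenase, had 51 counts in RAC3 replicate 2 and 0 in the other 5 samples. MSN, encoding moesin, which links CD44 to actin, had 7 counts there and at most 3 elsewhere. Between 1 and 4 genes per library reached 15 counts and 4 times the highest other library, with 4 in RAC3 replicate 2 (ALDH1A3, CD44, KRT7 and RAB4B-EGLN2). These limits and the genes outside the marker list were chosen after their values were seen. Leaving out RAC3 replicate 2 changed the call of none of the 8 tested markers, with log2 fold changes of 0.48 for SPP1 and -0.35 for KRT19.

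**Figure D4:**
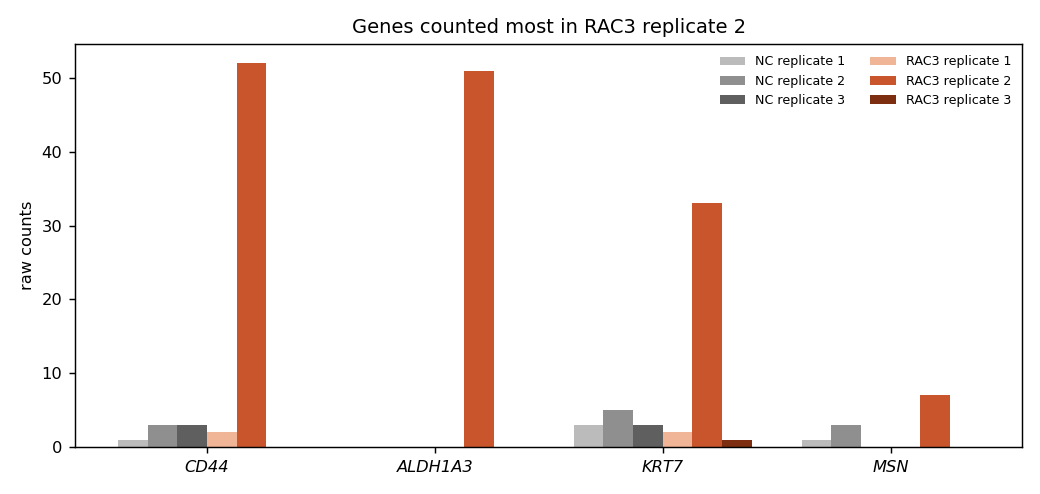
Raw counts of CD44, ALDH1A3, KRT7 and MSN in each of the 6 libraries (grey shades NC, orange shades RAC3). RAC3 replicate 2 holds 52, 51, 33 and 7 counts, and no other library has more than 5 of any of these genes.

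Genes related to the markers were read from 6 lists chosen by role. For reading the counts of each list, 13.3% of all tested genes rose and 15.3% fell. Of 27 other oncofetal and stem cell genes, 21 were tested, and 5 rose and 6 fell (median log2 fold change 0.03). CD47, the surface protein that inhibits phagocytosis, rose from 11.4 ± 0.359 to 15.8 ± 0.510 CPM (log2 fold change 0.48, adjusted p = 0.0023), with 0.32 to 0.79 over the alternatives. The imprinted gene PEG10 rose from 539.9 ± 44.0 to 724 ± 21.5 CPM (0.42, adjusted p = 4.4e-06). IGF2, a fetal growth factor, fell from 1203 ± 72.3 to 941 ± 56.8 CPM (-0.35, adjusted p = 1.8e-05), and with the GC trend removed this was -0.18 (adjusted p = 0.0058). With that trend removed, 7 genes of the list passed in place of 11, 7 also without RAC3 replicate 1 or without RAC3 replicate 3, and 5 with FPKM values. H19 had no row.

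Among 19 biliary and Notch pathway genes, 18 were tested, and 4 rose and 5 fell (median -0.12), with KRT19 and SOX9 not counted in the list. The receptor NOTCH3 fell from 16.0 ± 1.30 to 11.1 ± 0.695 CPM (log2 fold change -0.52, adjusted p = 0.0016), which became -0.33 (adjusted p = 0.037) with the GC trend removed. HES1, a target gene of Notch, fell from 58.0 ± 8.77 to 43.1 ± 5.09 CPM (-0.42, adjusted p = 0.0023). CFTR, the chloride channel of bile duct cells, rose from 5.40 ± 0.284 to 7.91 ± 0.269 CPM (0.55, adjusted p = 0.010). With FPKM values the calls of NOTCH3 and CFTR were lost and 2 genes of the list passed in place of 9.

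Of 20 genes of mature hepatocytes, 15 were tested, and 4 rose and 5 fell (median -0.09). Those that rose were FGB (log2 fold change 0.30, adjusted p = 2.6e-05), FGA (0.21, adjusted p = 0.00039), FGG (0.23, adjusted p = 0.0011) and APOB (0.20, adjusted p = 0.0016). With the GC trend removed, 3 genes of the list rose and 5 fell. The fall was largest for TF, encoding transferrin, from 1174 ± 43.6 to 795 ± 31.5 CPM (log2 fold change -0.56, adjusted p = 1.2e-08). Both subunits of the asialoglycoprotein receptor fell: ASGR1 by 0.55 (adjusted p = 6.9e-06) and ASGR2 by 0.38 (adjusted p = 1.3e-05) on the log2 scale. With the GC trend removed ASGR2 fell by 0.24 (adjusted p = 0.00036). TTR fell too (-0.26, adjusted p = 0.00076). AHSG had -0.33 (adjusted p = 0.018), a call lost with the GC trend removed (adjusted p = 0.076), with FPKM values, without NC replicate 3 and without RAC3 replicate 3. ALB, the adult counterpart of AFP and its neighbour, had 2368 ± 109 and 2229 ± 139 CPM (-0.09, adjusted p = 0.15), which became -0.20 (adjusted p = 9.3e-05) with the GC trend removed. It also passed without NC replicate 1 or without RAC3 replicate 1. AFM, on the other side of AFP, had at most 8 counts, and GC, another member of the albumin family, rose from 28.3 ± 0.669 to 40.1 ± 4.12 CPM (0.51, adjusted p = 0.00012).

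All 12 regulators of AFP and GPC3 were tested, and 1 rose and 6 fell (median -0.15). The repressors of AFP moved in opposite directions. ZHX2, which represses AFP and GPC3 after birth, fell from 34.4 ± 4.54 to 27.0 ± 0.329 CPM (log2 fold change -0.34, adjusted p = 0.0062). ZBTB20, which represses AFP, rose from 42.7 ± 0.839 to 53.8 ± 4.03 CPM (0.34, adjusted p = 0.0010), and by 0.20 (adjusted p = 0.026) with the GC trend removed. CEBPA, a factor of hepatocyte maturation, fell from 335 ± 26.3 to 239.6 ± 11.1 CPM (-0.48, adjusted p = 1.9e-06), and this was -0.26 (adjusted p = 8.1e-05) with the GC trend removed. With FPKM values the calls of ZHX2 and ZBTB20 were lost and 2 genes of the list, both lower, passed in place of 7.

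Of 25 genes for receptors, partners and processing enzymes of the markers, 19 were tested, and 5 rose and 6 fell (median 0.06), a sum of 11 that became 5 with the GC trend removed, 7 without NC replicate 2, 6 without RAC3 replicate 3 and 4 with FPKM values. ITGA9, an integrin subunit that binds osteopontin, rose from 2.00 ± 0.127 to 3.67 ± 0.187 CPM (log2 fold change 0.88, adjusted p = 0.0090) and passed the study's thresholds, while its adjusted call was lost with FPKM values. ITGAV, part of other osteopontin receptors, rose from 288 ± 12.2 to 341 ± 18.3 CPM (0.24, adjusted p = 0.00072), a call lost with the GC trend removed (0.09, adjusted p = 0.083). ITGB1, the partner of ITGA9, had 331 ± 17.4 and 348 ± 10.9 CPM (0.07, adjusted p = 0.26). ITGA5 fell from 112 ± 15.3 to 75.6 ± 4.10 CPM (-0.56, adjusted p = 2.1e-05), and ESRP2, a splicing factor of epithelial cells that acts on CD44 transcripts, from 78.9 ± 2.56 to 63.0 ± 3.38 CPM (-0.33, adjusted p = 0.00041). The ESRP2 value was -0.17 (adjusted p = 0.022) with the GC trend removed. NOTUM, a secreted hydrolase of Wnt signalling, had 2.96 ± 0.253 and 1.82 ± 0.483 CPM and passed the study's thresholds, but not the adjusted one (-0.71, adjusted p = 0.061). It passed the adjusted one without RAC3 replicate 2, with edgeR's exact test and with a minimum of 10 counts in every sample, and had -0.48 (adjusted p = 0.23) with the GC trend removed.

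Of 17 paralogs and genomic neighbours, 7 were tested, and 1 rose and 2 fell (median 0.01). The glypicans that fell were GPC1, from 135 ± 5.92 to 96.0 ± 2.33 CPM (log2 fold change -0.50, adjusted p = 1.2e-06), and GPC4, the neighbour of GPC3 on chromosome X, from 25.8 ± 0.389 to 21.0 ± 0.488 CPM (-0.29, adjusted p = 0.010). With the GC trend removed these were -0.26 (adjusted p = 0.00025) and -0.35 (adjusted p = 0.0027), and with FPKM values the call of GPC4 was lost. All values of CPM in these lists are means ± SD with n = 3. MEG3, beside DLK1, had no row.

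**Figure D5:**
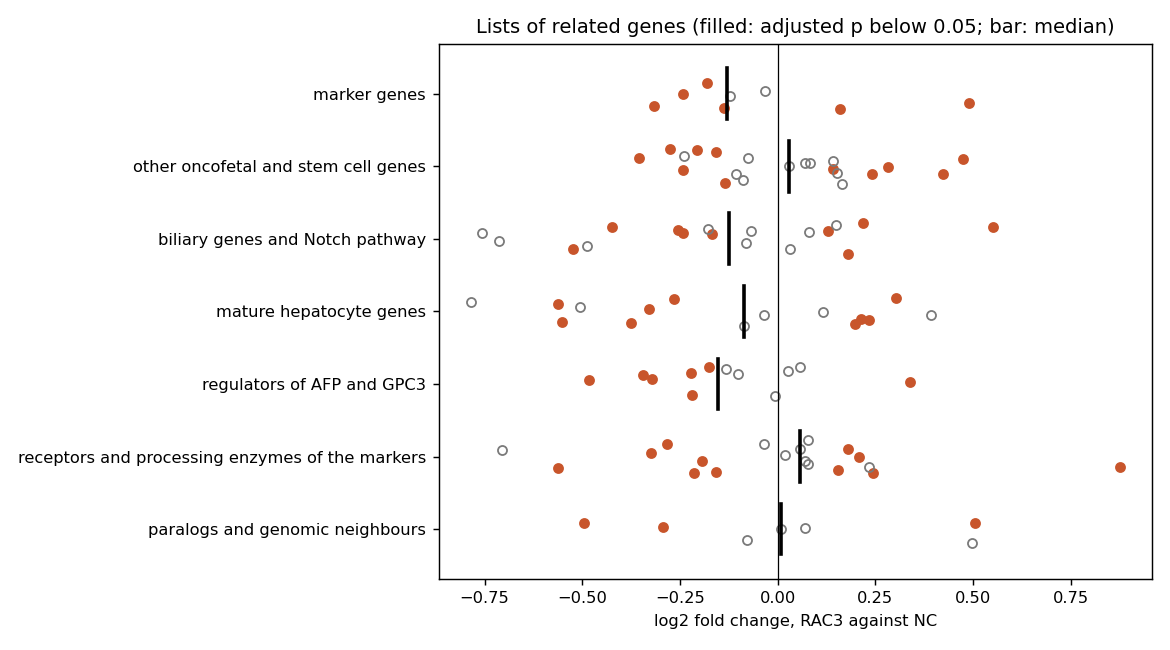
Log2 fold change of RAC3 against NC for each tested gene of the marker list and of the 6 lists of related genes, with filled points for an adjusted p below 0.05 and a bar at each list's median. The medians lie between -0.15 and 0.06, and every list holds genes that rose and genes that fell.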

How the data were processed

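The authors deposited, for 6 Huh-7 samples, raw counts per gene and FPKM values. The submitters' processing notes name Bowtie2 2.2.8, HISAT2, StringTie 1.3.1 and DESeq2; the genome build and the use of strand are not given in the sources used here. The authors' mean FPKM of each group was not used. Counts were tested in R 4.3.3 with edgeR 4.0.16 (filterByExpr, TMM, quasi-likelihood F test, two-sided, no covariate), with limma 3.58.1 and DESeq2 1.42.0 as alternatives. Other scalings and filters, a term for the replicate number and leaving out each sample were also tried. The steps were tested on simulated data. The biological coefficient of variation was 0.0533. For the GC correction, each library's lowess trend (span 0.3) was removed over 12863 genes whose longest transcript is in GENCODE release 29, in which 20113 identifiers were found and 219 were not. FPKM was tested as log2(FPKM + 0.1). Of the markers, 5 had RefSeq promoters. Members and lists were chosen with earlier results of these data known. Of each list, genes past the study's thresholds, or with an adjusted p below 0.05 and a fold above 1.25, were named, at most 5 in each direction, with the markers' neighbours and partners. In the lists of mature hepatocyte genes and of biliary and Notch pathway genes, those that rose or fell by less were named too. Samples of the same number showed no pairing (correlations of -0.0873, -0.0455 and -0.0207).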

Additional observations from a re-analysis of the deposited data

How the results depend on the processing

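DLK1, and CD44 in all but 1 sample, had at most 3 counts, which allows no comparison of the groups. Removing the GC trend moved AFP from 0.16 to 0.012 and KRT19 from -0.32 to -0.14, and SPP1 from 0.49 to 0.38 (log2). The number of markers past the study's thresholds, 0, became 1 with the filter reduced to genes at 0 in every sample (CD44), and 0 to 1 when each sample was left out. The number with an adjusted p below 0.05, 6, became 3 with limma on FPKM values and 5 to 6 with a sample left out. It was 4 with library size alone, 5 with DESeq2 and 7 with that reduced filter, which added CD44. With the GC trend removed the number stayed at 6, but AFP was lost and PROM1 gained, so that 1 rose and 5 fell. With the replicate number as a block it was 6, and no marker's call changed under this pairing. Over all genes, 605 calls became 182 at a fold of 2 (615 with the block), and 3691 became 2162 with FPKM values (3261 with the block). With the GC trend removed these 605 and 3691 calls became 457 and 2684. In the 6 related lists, 2 calls by the study's thresholds became 5 with that reduced filter, 4 with FPKM values, 0 at a fold of 2 and 2 to 6 with a sample left out. The 50 calls by adjusted p became 23 with FPKM values and 36 with the GC trend removed (44 with the block). The log2 fold change of EPCAM turned from -0.033 to 0.023 with library size alone and to 0.023 with FPKM values. Apart from EPCAM, each tested marker kept its direction under all 17 alternatives. Scaling to library size alone moved the median of all genes by 0.06. The cause of these changes was not tested.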
